A study of Mus musculus with 30 samples.

Results

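The Cyp2a, Cyp2d, Cyp2e and Cyp2f enzymes examined here were Cyp2a4, Cyp2a5, Cyp2a12, Cyp2d9, Cyp2d10, Cyp2d22, Cyp2d26, Cyp2e1 and Cyp2f2. They were taken as every probe whose platform gene symbol is 1 of these 9 names, which gave 17 of the 46643 probes on the array and 9 of 19406 named genes. Cyp2a5 had 4 probes, Cyp2a4, Cyp2a12, Cyp2d22, Cyp2d26 and Cyp2e1 had 2 each, and Cyp2d9, Cyp2d10 and Cyp2f2 had 1 each. The mice were 4-month-old males killed after a night without food, and RNA of their liver and subcutaneous fat was run on 15 Illumina bead arrays per tissue. The mice carried a growth hormone receptor cut short at amino acid 569 (569), one cut short at amino acid 391 (391), one mutated in its Box1 segment (Box1), no receptor (KO), or the wild-type receptor (WT), with 3 arrays for each genotype in each tissue. The labels call the mutants transgenic mice and give no tissue-limited promoter or Cre. Nothing in the labels ties an array to an animal of its own, so p-values cover only the spread among these arrays, some of which may be technical.

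As background, cytochromes P450 of family 2 are haem enzymes of the endoplasmic reticulum that hydroxylate steroids, drugs and environmental chemicals, with electrons supplied by P450 reductase. In mouse liver many of them are made at different levels in males and females, because the pulses of growth hormone in males and its steadier presence in females are read through the receptor, the kinase JAK2 and the factor STAT5b. Box1 is the segment of the receptor that engages JAK2, the STAT5 docking tyrosines lie in the tail that truncation at 391 takes away, and truncation at 569 takes a part of them. Cyp2a4, a testosterone hydroxylase, is known as a female-predominant enzyme of mouse liver, and Cyp2d9, another testosterone hydroxylase, as a male-predominant one.

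The promoters of the genes that moved most are shown first. RefSeq promoters of assembly GRCm38.p6 were matched by symbol for 8 of the 9 genes, and Cyp2d22 is named only. Over the 250 bases before the annotated start, Cyp2a4 and Cyp2a5 were 98.4% identical (4 mismatches in 249 aligned bases), against 61.5% for Cyp2a4 and Cyp2a12 and 85.0% for Cyp2d9 and Cyp2d10. The last 150 bases before the start of Cyp2a4 (chr7:26307042-26307191, plus strand) and of Cyp2a5 (chr7:26835189-26835338, plus strand) read as follows, with capitals marking TTGCATAA, the reverse complement of TTATGCAA, and CAAAGTCC.
Cyp2a4: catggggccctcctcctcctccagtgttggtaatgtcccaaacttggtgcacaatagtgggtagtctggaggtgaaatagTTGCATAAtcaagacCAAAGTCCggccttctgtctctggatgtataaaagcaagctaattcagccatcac
Cyp2a5: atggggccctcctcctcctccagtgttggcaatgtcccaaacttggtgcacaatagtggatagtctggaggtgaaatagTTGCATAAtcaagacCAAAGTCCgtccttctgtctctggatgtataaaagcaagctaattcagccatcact

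TTATGCAA is a D-box variant, the kind of element read by the PAR leucine zipper factors Dbp, Tef and Hlf, which are known to drive the daily rhythm of both genes in mouse liver, and CAAAGTCC is a sequence of the kind bound by HNF4. On either strand of the 250 bases, TTATGCAA occurred in 0.694% of 32851 RefSeq promoters and CAAAGTCC in 1.2%. Among the 8 promoters both were found in Cyp2a4 and Cyp2a5 alone, beginning 70 and 55 bases before the start of Cyp2a4 and 71 and 56 bases before that of Cyp2a5. Since the pair of promoters is nearly the same sequence, these are not independent matches. The STAT palindrome TTCNNNGAA, held by 7.02% of promoters, was in none of the 8 windows. No match says only that these letters are absent from the window.

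The second pair compares 100 bases of Cyp2d9 (chr15:82452217-82452316, plus strand) with 100 bases of Cyp2d10 (chr15:82407255-82407354, minus strand), both from 160 to 61 bases before the start. Capitals mark TTCCGG, the core read by ETS factors, of which GABP is known to bind a sex-difference element of the Cyp2d9 promoter.
Cyp2d9: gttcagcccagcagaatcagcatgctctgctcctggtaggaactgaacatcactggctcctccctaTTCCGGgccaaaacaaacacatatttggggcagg
Cyp2d10: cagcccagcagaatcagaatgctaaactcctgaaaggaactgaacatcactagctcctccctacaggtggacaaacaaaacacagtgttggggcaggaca

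TTCCGG was in 12.0% of promoters on either strand. Of the 8 promoters it was found in that of Cyp2d9, beginning 94 bases before the start, and not in the other 7. A match is a description of the sequence and not a measured site.

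All measurements are ratios, in which a probe is divided by the median it had among the 15 arrays of its tissue. A ratio of 1 is therefore the tissue median, no absolute level remains, and neither genes nor tissues can be compared by level. A ratio cannot show whether the markers of a tissue are present, only which arrays stand apart from the others. Array medians ran from 0.98 to 1.01 on the 30 arrays, and signal over background is unknown. Differences are log2 differences ± SE from limma over all 46643 probes, and a probe is said to have risen or fallen where its Benjamini-Hochberg adjusted p was under 0.05. In liver, the second 391 array and the third 391 array held pancreatic acinar RNA markers at a median log2 ratio of 2.87 and 2.28 over 15 genes, against -0.09 to 0.08 on the other 13 liver arrays, and the second also held skeletal muscle markers at 3.81. The hepatocyte markers of all 15 liver arrays had medians between -0.29 and 0.14. In fat, the second Box1 array and the second WT array held hepatocyte markers at medians of 2.45 and 1.24 over 12 genes, and the third 569 array was low in adipocyte markers at -2.09. Some results that touch these arrays are given with and without them, and the others only with them. The contrast that pools 391, Box1 and KO, its marker lists, the F test and the search for the closest genes include both 391 arrays. The titles end in a number shared by 6 arrays and a letter, which was taken here to mark a slide, although no label says so. By that number, 569 and WT livers shared a slide and so did KO and 391 livers. The same pairs shared slides in fat, and Box1 fat shared a slide with Box1 liver. Every other comparison of genotypes within a tissue lay across slides, where slide and genotype cannot be told apart.

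In liver, Cyp2a4 and Cyp2a5 had their highest means in KO, were near the tissue median in 391 and Box1, and were low in 569 and WT. The KO arrays lay above all 391 and Box1 arrays on every probe of these genes except Cyp2a5 probe 2, where they overlapped. The share of all probes separated in this way is not given here. Cyp2a12, in the same cluster of chromosome 7 as Cyp2a4 and Cyp2a5, was higher in 391, Box1 and KO by a smaller step. Cyp2f2 fell in 391 and Box1 and Cyp2d9 in KO, and no difference from WT passed the test for Cyp2d10, Cyp2d26 or Cyp2e1. Against WT, 7 member probes rose and 1 fell in 391 livers, where 1.91% of all probes were called, 1.48% up and 0.427% down. In Box1 livers 7 rose and 1 fell, where 1.32% of all probes were called, 1.06% up and 0.264% down. In KO livers 8 rose and 1 fell, where 1.93% were called, 1.44% up and 0.489% down. Without both 391 arrays that held pancreatic markers 7 were called in 391 livers, where 2.79% of all probes were. In 569 livers none of the 17 was called, where 0.00858% of all probes were called, and 3 had an unadjusted p under 0.05, as did 7.01% of all probes. The median difference of the 17 probes was 0.34 in 391, 0.28 in Box1, 0.38 in KO and -0.01 in 569 livers, against 0.02, 0.02, 0.01 and -0.02 over all probes. The 4 comparisons share the WT arrays.

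**Figure D1:**
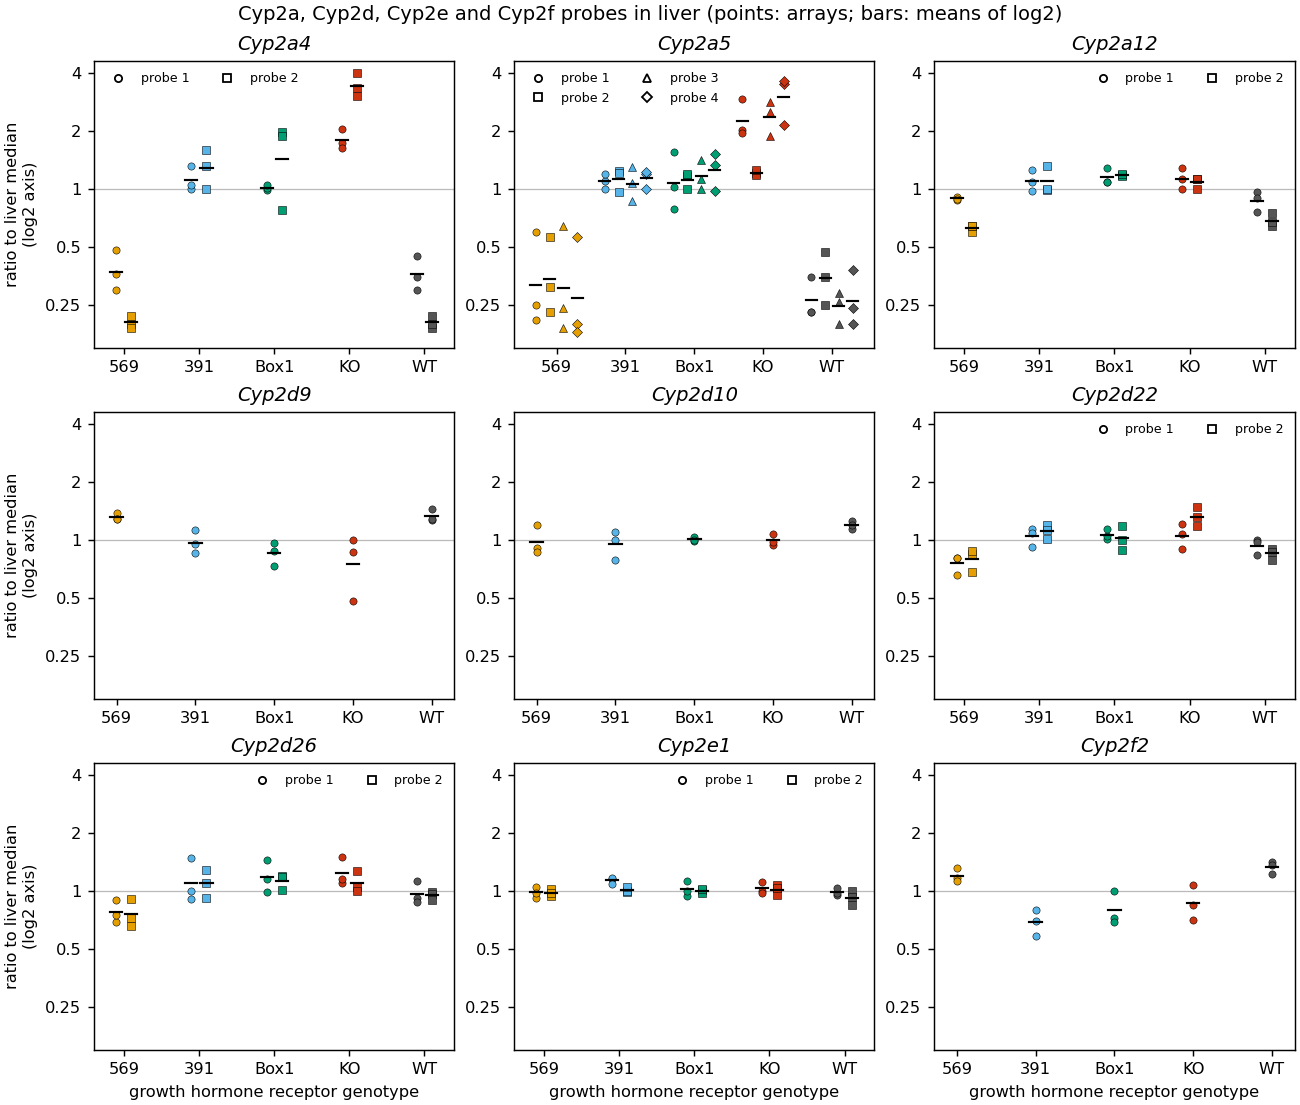
Ratio to the liver median (log2 axis) of each of the 17 probes on the 15 liver arrays, by genotype; points are arrays, marker shapes are probes of a gene and bars are means of log2 (n = 3 arrays). The Cyp2a4 and Cyp2a5 points of 569 and WT lie between 0.18 and 0.64 and those of 391, Box1 and KO between 0.78 and 3.98.

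Cyp2a4 had 2 probes. Probe 2 stood at 0.22, 0.2 and 0.19 in 569 livers, 1.6, 1.31 and 1 in 391 livers, 0.78, 1.97 and 1.89 in Box1 livers, 3.98, 3.33 and 3.04 in KO livers, and 0.22, 0.19 and 0.2 in WT livers. The 569 and WT arrays filled the same narrow range, every 391 and Box1 array lay above both, and every KO array lay above all others. The difference from WT was 2.66 ± 0.27 in 391 livers (limma, adjusted p = 5.9e-05), 2.81 ± 0.27 in Box1 livers (adjusted p = 2.6e-05) and 4.08 ± 0.27 in KO livers (adjusted p = 3.8e-07), the last a 16.9-fold higher ratio. In 569 livers it was 0.00 ± 0.27. Probe 1 gave 0.36, 0.3 and 0.48 in 569 livers, 1.32, 1 and 1.05 in 391 livers, 0.99, 1.01 and 1.05 in Box1 livers, 2.04, 1.72 and 1.62 in KO livers, and 0.45, 0.3 and 0.35 in WT livers. Here too every KO array lay above all others and 569 overlapped WT, over a smaller range than on probe 2, with a KO difference of 2.30 ± 0.17 from WT (adjusted p = 1.6e-06).

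Cyp2a5, the coumarin and nicotine hydroxylase of mouse liver, had 4 probes. Probe 4 stood at 0.2, 0.18 and 0.56 in 569 livers, 1.19, 1 and 1.22 in 391 livers, 0.98, 1.33 and 1.52 in Box1 livers, 3.5, 3.63 and 2.15 in KO livers, and 0.38, 0.2 and 0.24 in WT livers. The third 569 array lay above all WT arrays and below every array of 391, Box1 and KO, and the same array was the highest of its group on all 4 probes, at 0.56 to 0.64. The differences of probe 4 from WT were 2.10 ± 0.35 in 391 livers (adjusted p = 0.0060), 2.25 ± 0.35 in Box1 livers (adjusted p = 0.0040) and 3.52 ± 0.35 in KO livers (adjusted p = 5.0e-05). Over the 4 probes the difference from WT was 1.71 to 2.11 in 391, 1.69 to 2.25 in Box1 and 1.81 to 3.52 in KO livers, all called. The value at the low end in each of these genotypes came from probe 2. Under quantile normalization probe 4 was no longer called in 391 livers (1.58, adjusted p = 0.053).

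The step between KO and the 2 mutant receptors is where the Cyp2a5 probes parted. Probe 2 gave 1.24, 0.96 and 1.21 in 391 livers and 1, 1.16 and 1.2 in Box1 livers, and its KO arrays, at 1.21, 1.18 and 1.25, overlapped both. Probes 1, 3 and 4 had KO arrays between 1.88 and 3.63, above every 391 and Box1 array of the same probe. Within their shared slide, KO minus 391 was 1.42 ± 0.27 for Cyp2a4 probe 2 (adjusted p = 0.047), the 1 member probe called where 0.18% of all probes were, 0.0986% up and 0.0815% down. It was 0.68 ± 0.17 for Cyp2a4 probe 1 (adjusted p = 0.18), 1.05 ± 0.33, 1.15 ± 0.33 and 1.41 ± 0.35 for Cyp2a5 probes 1, 3 and 4 (adjusted p = 0.32, 0.26 and 0.18), and 0.10 ± 0.26 for Cyp2a5 probe 2 (adjusted p = 0.96). The call for Cyp2a4 probe 2 was lost in 11 of the 15 fits that left out 1 liver array and without both 391 arrays that held pancreatic markers (1.10, adjusted p = 0.25). Whether the Cyp2a5 probes differ from each other was not tested. Only the promoters of Cyp2a4 and Cyp2a5 were aligned, and no transcript or probe sequence was compared, so which copy a probe reads is uncertain.

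KO minus Box1, which lies across slides, had the same sizes: 0.81 ± 0.17 and 1.26 ± 0.27 for Cyp2a4 (adjusted p = 0.087 each) and 1.02 to 1.26 for Cyp2a5 probes 1, 3 and 4. No member probe was called there, where 0.148% of all probes were, 0.0643% up and 0.0836% down, and 6 had an unadjusted p under 0.05, as did 8.71% of all probes. Box1 minus 391 was between -0.13 and 0.16 for the 6 Cyp2a4 and Cyp2a5 probes with SEs of 0.17 to 0.35. None of the 17 member probes was called, where 0.00429% of all probes were. None had an unadjusted p under 0.05, against 6.08% of all probes. These SEs leave room for differences of a size seen between other groups, so likeness of Box1 and 391 is not shown.

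Livers of 391 were also set against those of 569, the longer truncated receptor. There 10 member probes rose and 1 fell in 391 livers, where 4.7% of all probes were called, 4.31% up and 0.386% down. Cyp2a4 rose by 1.58 ± 0.17 and 2.66 ± 0.27, and the 4 Cyp2a5 probes by 1.72 to 2.06. Cyp2a12 probe 2 rose by 0.80 ± 0.10 (adjusted p = 7.8e-04), the Cyp2d22 probes by 0.46 ± 0.12 and 0.48 ± 0.12 (adjusted p = 0.045 and 0.038) and Cyp2d26 probe 2 by 0.53 ± 0.14 (adjusted p = 0.039), while Cyp2f2 fell by 0.80 ± 0.16 on the log2 scale (adjusted p = 0.012). The Cyp2d22 and Cyp2d26 calls were lost on quantile-normalized values (0.32, 0.36 and 0.37, adjusted p between 0.13 and 0.18), and in 9, 6 and 7 of the 15 fits that left out 1 array. In a fit of the 569 and 391 arrays alone 5 member probes were called, where 1.15% of all probes were, with Cyp2a5 probes 1, 3 and 4 at adjusted p between 0.052 and 0.082. Without the third 569 array 7 were called (2.27% of all probes), the lost calls being those of Cyp2d22, Cyp2d26 and Cyp2f2. Without both 391 arrays that held pancreatic markers 8 were called (5.17%), with Cyp2f2 at -0.58 (adjusted p = 0.17).

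Cyp2a12, which re-hydroxylates secondary bile acids in mouse liver, was measured by 2 probes. Probe 2 stood at 0.6, 0.64 and 0.64 in 569 livers, 1.32, 0.99 and 1 in 391 livers, 1.18, 1.17 and 1.2 in Box1 livers, 1, 1.12 and 1.13 in KO livers, and 0.75, 0.64 and 0.67 in WT livers. The arrays of 391, Box1 and KO lay wholly above those of 569 and WT. The KO arrays lay below all Box1 arrays and within the range of 391, with differences of -0.13 ± 0.10 from Box1 and -0.02 ± 0.10 from 391 that were not called. Differences from WT were 0.67 ± 0.10 in 391 (adjusted p = 0.0038), 0.79 ± 0.10 in Box1 (adjusted p = 0.0011) and 0.66 ± 0.10 in KO livers (adjusted p = 0.0034), and that of 391 was not called in a fit of 391 and WT alone (adjusted p = 0.092). Probe 1 differed by 0.34, 0.40 and 0.38 with an SE of 0.12 and was not called in any of the 3 genotypes, although its arrays also lay above all WT arrays.

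Cyp2d9 stood at 1.38, 1.28 and 1.28 in 569 livers, 1.12, 0.95 and 0.85 in 391 livers, 0.73, 0.88 and 0.96 in Box1 livers, 1, 0.48 and 0.87 in KO livers, and 1.27, 1.28 and 1.44 in WT livers. Every array of 391, Box1 and KO lay below every array of 569 and WT. The difference from WT was -0.46 ± 0.20 in 391 livers (adjusted p = 0.36), -0.64 ± 0.20 in Box1 livers (adjusted p = 0.16) and -0.83 ± 0.20 in KO livers (adjusted p = 0.048), against -0.02 ± 0.20 in 569 livers. The KO call leaned on the second KO array at 0.48: without it the difference was -0.51 (adjusted p = 0.11), and the call was lost in 12 of the 15 fits that left out 1 array. In Box1 livers the call appeared without that KO array (adjusted p = 0.017) and in a fit of Box1 and WT alone (adjusted p = 0.020).

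Cyp2d10, whose promoter is close to that of Cyp2d9, stood at 1.19, 0.91 and 0.87 in 569 livers, 1, 0.79 and 1.1 in 391 livers, 1.04, 0.99 and 1 in Box1 livers, 1.07, 0.94 and 0.98 in KO livers, and 1.25, 1.14 and 1.19 in WT livers. All arrays of 391, Box1 and KO lay below those of WT, but the differences, -0.32, -0.24 and -0.26 with an SE of 0.13, did not pass the test, and the 569 difference of -0.28 was of the same size. The Cyp2d9 difference between 569 and the 3 other mutants thus had no counterpart of its size in Cyp2d10, where 391 minus 569 was -0.04 ± 0.13 against -0.44 ± 0.20 for Cyp2d9, neither called. Whether the 2 genes differ in this was not tested.

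Cyp2d22, often set beside human CYP2D6, had called differences in KO livers on 1 of its 2 probes. Probe 2 stood at 0.84, 0.88 and 0.68 in 569 livers, 1.2, 1.01 and 1.13 in 391 livers, 1.18, 1 and 0.89 in Box1 livers, 1.32, 1.48 and 1.18 in KO livers, and 0.9, 0.87 and 0.79 in WT livers. KO and 391 arrays lay above all WT arrays, while Box1 overlapped them by 1 array. The KO difference was 0.63 ± 0.12 (adjusted p = 0.015), and it was lost in 4 of the 15 fits that left out 1 array, at adjusted p between 0.0513 and 0.0865. Probe 1 differed by 0.16 to 0.19 in the 3 genotypes with an SE of 0.12 and was not called. Cyp2d26, another hepatic member of the Cyp2d cluster, differed from WT by 0.19 to 0.36 on its 2 probes in 391, Box1 and KO livers and by -0.32 ± 0.19 and -0.33 ± 0.14 in 569 livers, and none of these was called.

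Cyp2e1, the enzyme that oxidises ethanol and acetone around the central vein, moved least. Probe 1 stood at 1.05, 0.92 and 0.98 in 569 livers, 1.15, 1.16 and 1.09 in 391 livers, 1.13, 0.94 and 1 in Box1 livers, 1, 0.98 and 1.11 in KO livers, and 0.95, 0.97 and 1.03 in WT livers. All 15 ratios lay between 0.92 and 1.16, and those of probe 2 between 0.84 and 1.07. The differences from WT over both probes and the 4 mutants ran up to 0.21 with SEs of 0.08 to 0.09, and none was called. The highest, 0.21 ± 0.09 (adjusted p = 0.33), was that of probe 1 in 391 livers, whose arrays lay above all WT arrays. In KO livers the ratio was 1.05-fold that of WT on probe 1 and 1.10-fold on probe 2.

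Cyp2f2, known for turning naphthalene into its toxic epoxide and placed near the portal vein in liver, was lower in 391, Box1 and KO. It stood at 1.16, 1.12 and 1.31 in 569 livers, 0.8, 0.58 and 0.7 in 391 livers, 1, 0.72 and 0.69 in Box1 livers, 0.84, 0.71 and 1.07 in KO livers, and 1.41, 1.22 and 1.36 in WT livers. No array of 391, Box1 or KO reached any array of 569 or WT. The fall from WT was -0.95 ± 0.16 in 391 livers (adjusted p = 0.0067) and -0.75 ± 0.16 in Box1 livers (adjusted p = 0.035), and KO livers differed by -0.62 ± 0.16 (adjusted p = 0.066). The 391 call was lost without both arrays that held pancreatic markers (-0.73), and the Box1 call in 6 of the 15 fits that left out 1 array. KO was called without the third KO array (-0.78, adjusted p = 0.034) and without the first Box1 array (-0.62, adjusted p = 0.042). It was also called without both 391 arrays that held pancreatic markers, at the same -0.62. The order of the 3 genotypes, lowest in 391 and highest in KO, was within the spread of the arrays.

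**Figure D2:**
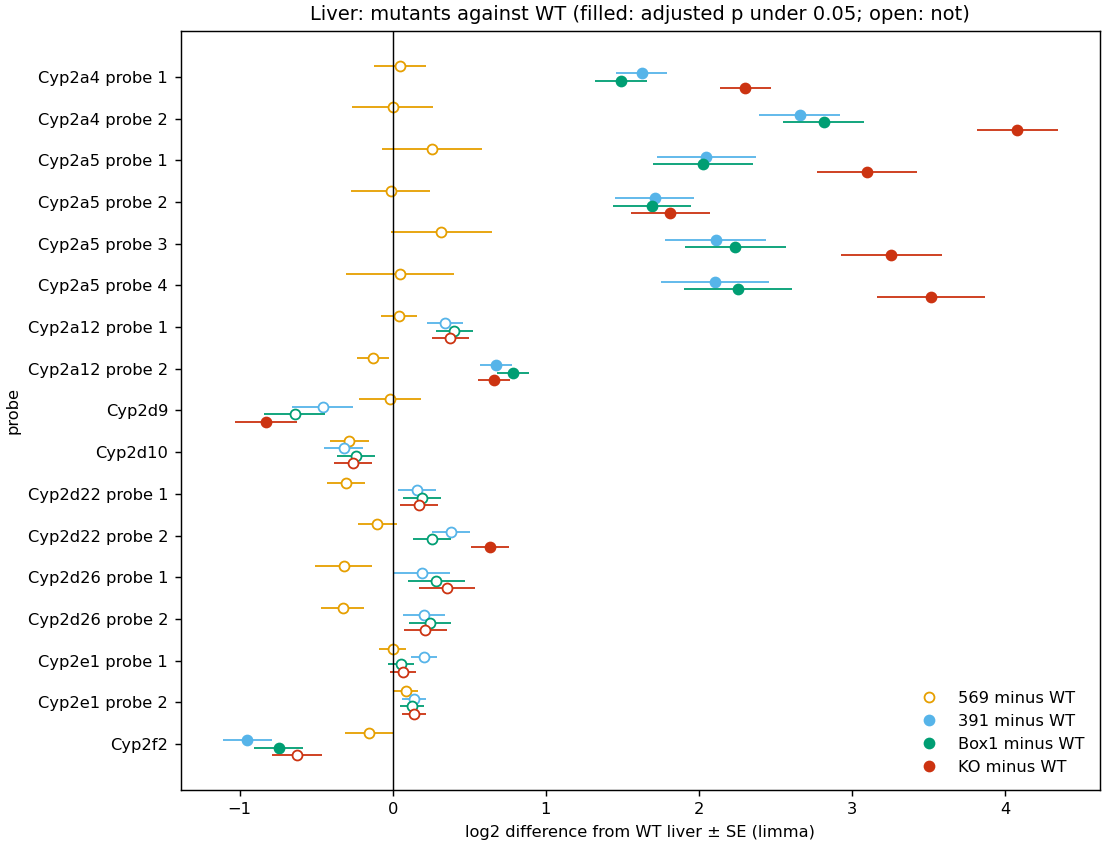
Log2 difference from WT liver ± SE (limma) for each member probe in 569, 391, Box1 and KO; filled points have an adjusted p under 0.05. Cyp2a4 and Cyp2a5 lie to the right at 1.49 to 4.08 in 391, Box1 and KO, Cyp2d9 and Cyp2f2 to the left, and every 569 point is open.

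Because 391, Box1 and KO stood together on most probes, their mean was set against the mean of WT and 569. The grouping was chosen with earlier results of these data known, so its calls summarize the values above and are not separate support. By the inferred slides, WT and 569 livers shared a slide that held no 391, Box1 or KO liver. Slide and this grouping therefore cannot be told apart. In this contrast 12 member probes rose and 2 fell, where 9.61% of all probes were called, 8.69% up and 0.915% down, and the 12 and 2 belong to 5 and 2 genes. Cyp2a4 rose by 1.78 ± 0.11 and 3.18 ± 0.17, Cyp2a5 by 1.75 to 2.60, Cyp2a12 by 0.35 ± 0.08 and 0.77 ± 0.07, Cyp2d22 by 0.33 ± 0.08 and 0.47 ± 0.08, and Cyp2d26 by 0.44 ± 0.12 and 0.38 ± 0.09. Cyp2d9 fell by 0.63 ± 0.13 (adjusted p = 0.0056) and Cyp2f2 by 0.70 ± 0.10 (adjusted p = 7.0e-04) on the log2 scale. Cyp2d10 (-0.13 ± 0.08, adjusted p = 0.41) and Cyp2e1 (0.11 ± 0.06 and 0.09 ± 0.05, adjusted p = 0.29 and 0.35) were not called. On quantile-normalized values Cyp2d22 probe 1 (0.23, adjusted p = 0.066) and Cyp2d26 probe 1 (0.34, adjusted p = 0.072) were not called. The median of the 17 probes was 0.44, against 0.02 over all probes. The summed ratio of the 12 hepatocyte markers split in the same way, at 12.22 to 14.05 on the 391, Box1 and KO arrays and 9.78 to 12.18 on the 569 and WT arrays, and its part in these differences was not tested.

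On chromosome 7 the genes run Cyp2s1, Cyp2b10, Cyp2b13, Cyp2b9, Cyp2a4, Cyp2b23, Cyp2b19, Cyp2g1, Cyp2a5, Cyp2a22, Cyp2a12, Cyp2f2 and Cyp2t4 in the RefSeq annotation. Between Cyp2a4 and Cyp2a5 lie Cyp2b23, Cyp2b19 and Cyp2g1, whose 4 probes differed by -0.11 to 0.07 and were not called. Whether these genes were absent or steady in liver cannot be read from ratios. Cyp2f2 fell next to Cyp2a12, which rose. Cyp2b13 and Cyp2b9, female-predominant enzymes listed just before Cyp2a4, rose by 4.84 ± 0.76 (adjusted p = 9.2e-04) and 2.59 ± 0.62 (adjusted p = 0.014) in the same contrast. Their arrays were spread differently. Cyp2b13 stood at 0.98, 1 and 0.72 in 569 livers, 67.35, 31.63 and 46.73 in 391 livers, 79.67, 53.55 and 61.74 in Box1 livers, 0.78, 0.71 and 77.18 in KO livers, and 0.66, 0.72 and 0.59 in WT livers. The third KO array, the 1 KO array high for Cyp2b13, was the lowest KO array for both Cyp2a4 probes, at 1.62 and 3.04. In the Cyp2d cluster of chromosome 15, Cyp2d12, which lies beside Cyp2d9, fell by 0.39 ± 0.07 (adjusted p = 0.0023), while Cyp2d34, Cyp2d13 and Cyp2d40 had no called probe.

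**Figure D3:**
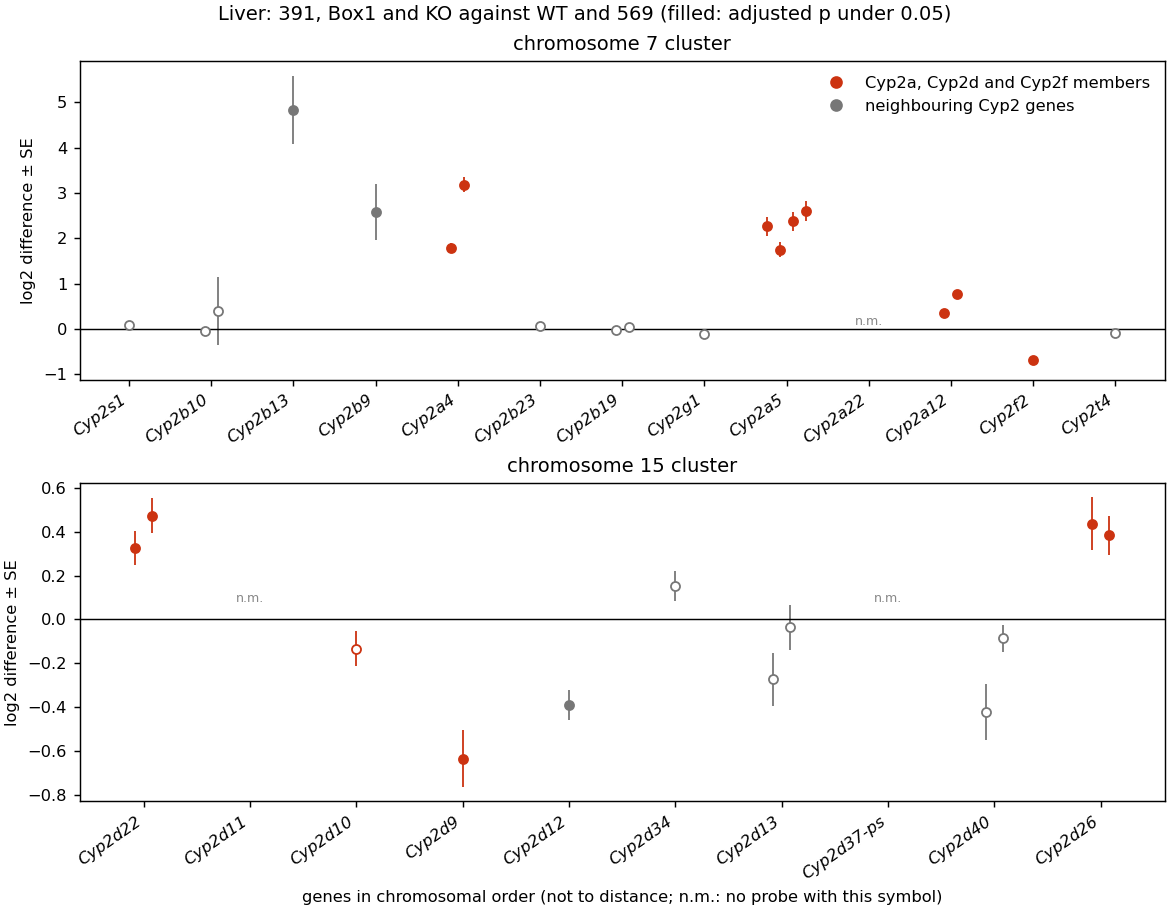
Log2 difference ± SE of 391, Box1 and KO livers from WT and 569 livers (limma), for each probe of the chromosome 7 and chromosome 15 Cyp2 clusters in gene order; filled points have an adjusted p under 0.05. Cyp2a4 and Cyp2a5 rose while the 4 probes between them lay at -0.11 to 0.07, and Cyp2d9 fell between Cyp2d10 and Cyp2d12.

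In the same contrast 9.61% of all probes were called, 8.69% up and 0.915% down. A gene is counted here where any of its probes was called. Of the 33 other Cyp2 genes on the array (47 probes), 4 rose and 3 fell, with a median of -0.07 against 0.02 over all probes. Beside Cyp2b13 and Cyp2b9 these were Cyp2c38 (0.55 ± 0.09) and Cyp2c37 (0.48 ± 0.13) among the genes that rose, and Cyp2c54 (-1.98 ± 0.17), Cyp2c23 (-1.64 ± 0.12 and -0.23 ± 0.06) and Cyp2d12 among those that fell. The partners that deliver electrons to P450s (5 genes, 9 probes, from a list of P450 reductase, cytochromes b5 and their partners) had no probe called, with a median of 0.06. Of 25 listed regulators of these genes, 7 rose and 1 fell, with a median of 0.04 over 43 probes. Bcl6, a repressor known to compete with STAT5 at sex-dependent genes, rose by 1.41 ± 0.23 (adjusted p = 0.0013), and Ppara, the fatty acid receptor induced by fasting, by 0.65 ± 0.15 (adjusted p = 0.011). Foxa1, the 1 that fell, by 0.32 ± 0.09 (adjusted p = 0.032), is named after its value was seen.

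Tef, 1 of the factors that read the D-box printed above, rose on 1 of its 3 probes by 0.87 ± 0.14 (adjusted p = 0.0013). That probe stood at 0.52, 0.57 and 0.83 in 569 livers, 1.02, 0.64 and 1 in 391 livers, 1.26, 1.35 and 0.98 in Box1 livers, 1.89, 1.85 and 1.84 in KO livers, and 0.58, 0.66 and 1.03 in WT livers. KO arrays were the highest and 391 overlapped WT, with a KO difference of 1.34 ± 0.22 (adjusted p = 0.0050) and a 391 difference of 0.24 ± 0.22 (adjusted p = 0.76), and 391 minus 569 was 0.47 ± 0.22 (adjusted p = 0.31). The other 2 Tef probes differed by 0.02 each and were not called. Dbp, named after its value was seen because it reads the same element, differed by 0.996 ± 0.477 and was not called (adjusted p = 0.25), nor was Hnf4a (0.10 ± 0.13, adjusted p = 0.74).

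Members differ in where along the liver lobule they are known to be made, so zonation markers were listed too. The counts are of genes with any probe called in the contrast of 391, Box1 and KO with WT and 569. There 9.61% of all probes were called, 8.69% up and 0.915% down. Of 14 periportal genes 9 rose and none fell, with a median of 0.72 over 21 probes, and of 17 pericentral genes 5 rose and 1 fell, with a median of 0.14 over 27 probes, against 0.02 over all probes. Periportal Aldh1b1 rose by 1.66 ± 0.16, Agxt by 1.18 ± 0.15 and Igfbp2 by 1.08 ± 0.15, and several of these are also known as targets of fasting or of growth hormone. Pericentral Rnase4 rose by 0.73 ± 0.13 and Gulo by 0.59 ± 0.14, while Aldh1a1 fell by 1.10 ± 0.15 on the log2 scale. Cyp2f2, the member placed near the portal vein, fell. Of the pericentral members, Cyp2a5 rose and Cyp2e1 was not called. Hepatocyte markers had 2 of 12 genes called, Hpd (0.90 ± 0.12) and Alb (0.59 ± 0.10), both up, with a median of 0.15, and their summed ratios are given above. Among markers of other cell types, 4 of 9 endothelial genes rose (median 0.30), 2 of 8 stellate or fibroblast genes (0.06), 3 of 10 adipocyte genes (0.07) and 1 of 15 pancreatic genes (0.61), while no macrophage gene of 10 was called (0.13). The summed ratio of listed cholangiocyte and epithelial genes was 6.59 to 6.665 on WT arrays and 5.62 to 6.925 on 569 arrays. It was 5.675 to 6.125 in 391, 5.865 to 5.985 in Box1 and 5.805 to 6.335 in KO livers. Skeletal muscle markers were high on the second 391 array, as given above. The part of all these markers in the member results was not tested.

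The genes closest to the members over the 15 liver arrays were found by the root mean square difference of log2 values, each probe centred on its own mean. Probes of the same gene were left out of the search, and by this measure the Cyp2a4 probes lay 0.79 apart. Probes named for Cyp2a4 and Cyp2a5 may read the same transcript, which was not tested. A Cyp2a5 probe was nearest to each Cyp2a4 probe (0.29 and 0.54 log2 units, where the Cyp2a4 probes themselves had SDs of 0.97 and 1.72), followed by Gsta2 and Robo1 for probe 1 and by Vldlr and Krt23 for probe 2. Cyp2a5 probe 2 was nearest to Gstt3 (0.24) and then Cyp2a4 (0.29), and the other Cyp2a5 probes to Cyp2a4, Hao2, Aldh1b1 and Vldlr. Cyp2a12 probe 2 was nearest to Arap2 (0.12), Cyp2d22 probe 2 to Nkap (0.13), Cyp2f2 to Dhrs1 (0.19), and Cyp2d9 to Ldhd (0.25) and its neighbour Cyp2d12 (0.25). Across the 17 member probes, the F test over the 5 liver genotypes was called for 10, where 5.43% of all probes were.

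In subcutaneous fat no member probe was called in any genotype against WT, where 0% of all probes were called in 569, 0.0129% in 391, 0.00214% in Box1 and 0% in KO. At an unadjusted p under 0.05 there were 0 member probes in 569, 2 in 391, 1 in Box1 and 1 in KO. The shares of all probes at that threshold were 8.96%, 4.58%, 4.54% and 6.24% in the same order of genotypes. Cyp2a4 probe 2, which spanned 0.19 to 3.98 in liver, stood at 0.87, 0.98 and 1.11 in 569 fat, 1.13, 0.88 and 0.96 in 391 fat, 1, 1.26 and 1 in Box1 fat, 1.03, 0.94 and 0.89 in KO fat, and 1, 1.02 and 0.91 in WT fat. The groups overlapped, and whether the transcript was absent or steady there cannot be read from a ratio.

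The difference between the tissues was tested in 1 fit of all 30 arrays. For Cyp2a4 probe 2 the difference from WT was larger in liver than in fat by 2.64 ± 0.32 in 391 (adjusted p = 7.0e-05), 2.67 ± 0.32 in Box1 (adjusted p = 6.0e-05) and 4.11 ± 0.32 in KO (adjusted p = 5.5e-08). That probe was the 1 called member in 391 and in Box1, where 0.227% of all probes were called in 391 (0.107% up, 0.12% down) and 0.148% in Box1 (0.0536% up, 0.0943% down). In KO 4 were called, where 0.341% were (0.159% up, 0.182% down), the others being Cyp2a5 probes 1, 3 and 4 at 3.21 to 3.64. In 569 none was called (0% of all probes, and no member at an unadjusted p under 0.05, against 7.75% of all probes). Without the second Box1 fat array 7 member probes were called in 391 (0.249% of all probes), 6 in Box1 (0.191%) and 7 in KO (0.407%).

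That array carried the highest fat ratios of the liver enzymes. Cyp2a5 probe 2 stood at 0.86, 22.08 and 1.02 in Box1 fat and at 0.83, 3 and 1.2 in WT fat, with all other fat arrays between 0.74 and 1.08. Cyp2a4 probe 1 stood at 0.97, 11.61 and 1.07 in Box1 fat and 0.86, 1.86 and 1.07 in WT fat, and Cyp2d10 at 0.93, 6.76 and 1.19 in Box1 fat and 0.93, 2.62 and 1.44 in WT fat. In the second Box1 array 11 member probes of 6 genes were above 1 log2 unit, where 0.785% of all probes were, and in the second WT array 5 probes of 5 genes, where 0.521% were. These were the arrays whose hepatocyte markers had medians of 2.45 and 1.24, with 7 and 8 of 12 genes above 1 log2 unit and summed ratios of 185.305 and 55.945, against medians of -0.22 to 0.32 on the other 13 fat arrays. The 6 probes not above 1 log2 unit in the second Box1 array were those of Cyp2d22, Cyp2e1 and Cyp2f2 and Cyp2a4 probe 2, which stood at 1.26 where Cyp2a4 probe 1 stood at 11.61. The part of hepatocyte RNA in these values was not tested. In bulk tissue, fewer cells of a type and less RNA per cell cannot be told apart.

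**Figure D4:**
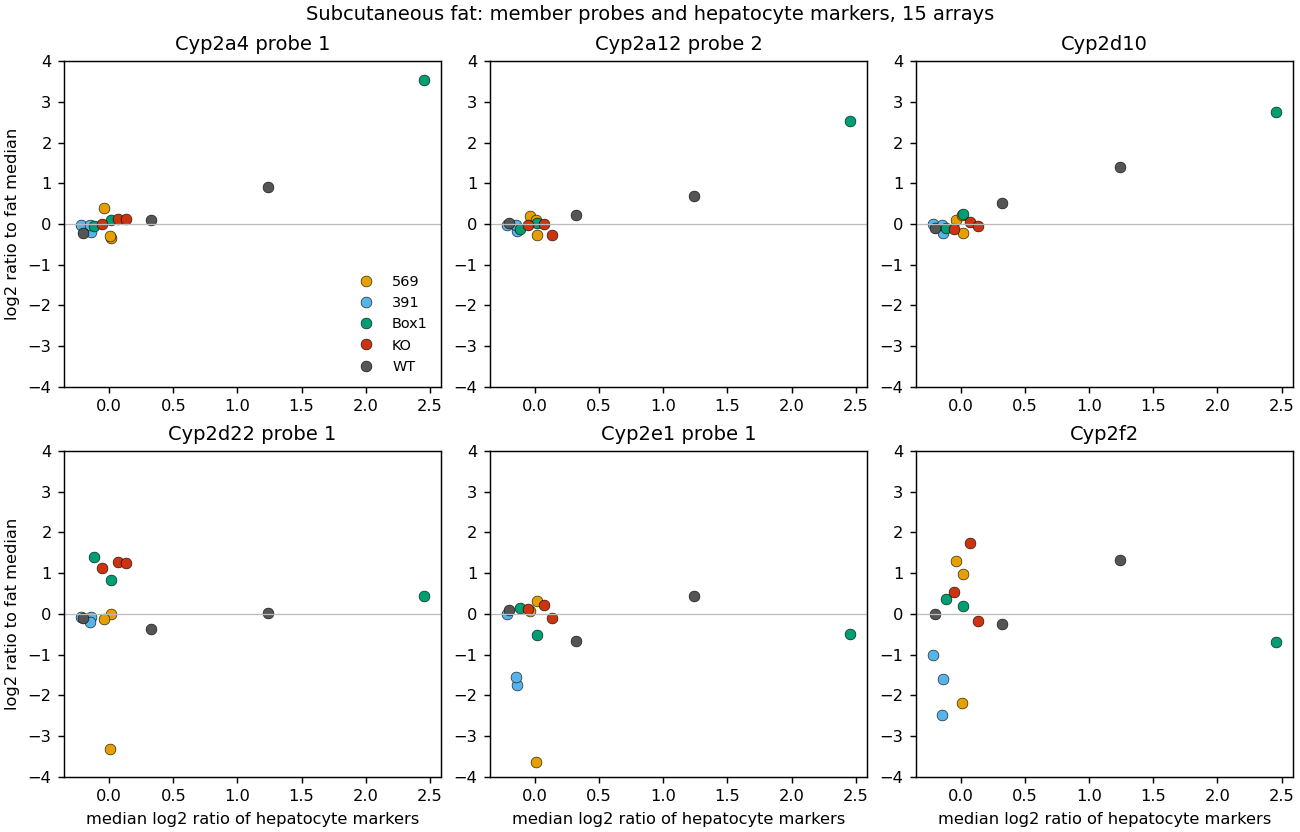
Log2 ratio to the fat median of 6 member probes against the median log2 ratio of 12 hepatocyte marker genes on the 15 fat arrays, coloured by genotype; each point is an array. Cyp2a4 probe 1, Cyp2a12 probe 2 and Cyp2d10 are highest on the Box1 array at 2.45 on the x axis, and Cyp2d22, Cyp2e1 and Cyp2f2 are not.

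Cyp2d22, Cyp2e1 and Cyp2f2 were not highest on the second Box1 fat array and varied partly together. Over the 15 fat arrays the Pearson r of Cyp2e1 probe 1 was 0.80 with Cyp2f2 and 0.78 with Cyp2d22 probe 1. That of Cyp2d22 probe 1 with Cyp2f2 was 0.55. These values include the third 569 array, low in adipocyte markers, on which all 3 genes were low. The part of that array in them was not tested. Cyp2d22 probe 1 stood at 1, 0.91 and 0.1 in 569 fat, 0.95, 0.95 and 0.87 in 391 fat, 2.64, 1.36 and 1.77 in Box1 fat, 2.18, 2.42 and 2.38 in KO fat, and 0.93, 1.02 and 0.77 in WT fat. Every Box1 and KO array lay above every array of the other 3 genotypes, yet the differences from WT, 1.04 ± 0.65 in Box1 (adjusted p = 1) and 1.37 ± 0.65 in KO (adjusted p = 0.80), were not called in a fit whose spread includes the 569 array at 0.1. Without that array the KO difference was called (1.37, adjusted p = 0.031), as it was in a fit of KO and WT alone (adjusted p = 0.026). Without it and both arrays high in hepatocyte markers, KO was called on probe 1 (1.46, adjusted p = 0.013) and probe 2 (0.69, adjusted p = 0.037). Box1 was called there on probe 1 (1.35, adjusted p = 0.039). These fits were chosen after the values were seen. In the fit of all fat arrays 0% of all probes were called in KO and 0.00214% in Box1. The shares in the reduced fits are not given here, so neither their calls nor the separation of the arrays is set against all probes. Probe 2 stood at 1.18, 1.27 and 1.14 in KO fat, above all WT arrays at 0.76, 0.91 and 0.72, with a difference of 0.59 ± 0.20 (adjusted p = 0.66) over all arrays.

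**Figure D5:**
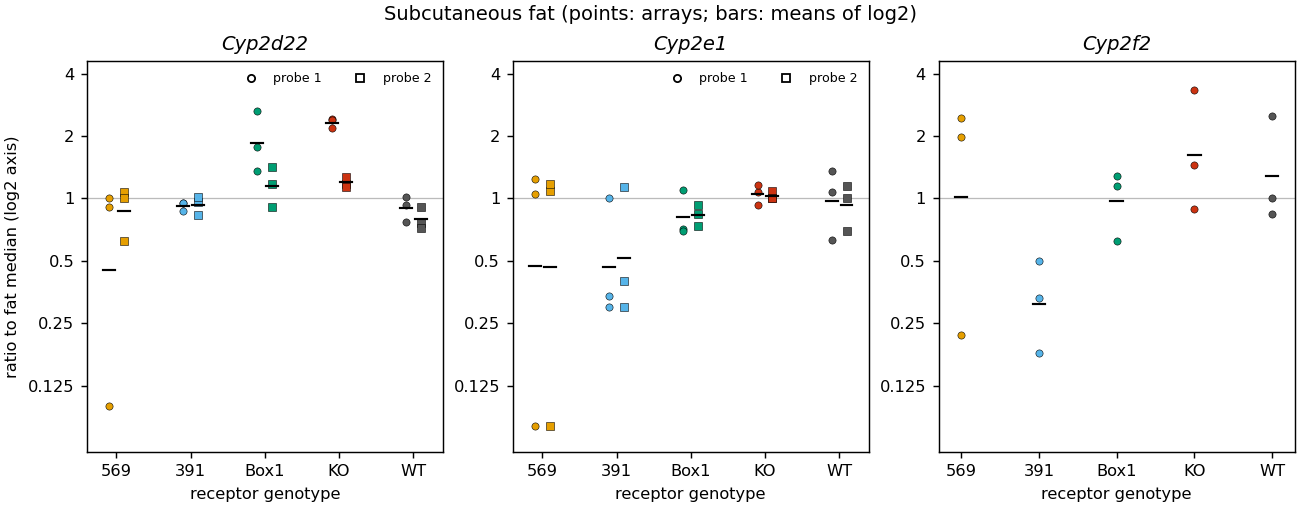
Ratio to the fat median (log2 axis) of Cyp2d22, Cyp2e1 and Cyp2f2 on the 15 fat arrays, by genotype; points are arrays, shapes are probes and bars are means of log2 (n = 3 arrays). Cyp2d22 probe 1 is between 1.36 and 2.64 in Box1 and KO, and 1 array of 569 lies at 0.1 or lower for Cyp2d22 probe 1 and Cyp2e1.

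Cyp2e1, which adipose tissue is known to express, stood on probe 1 at 1.24, 1.05 and 0.08 in 569 fat, 0.3, 1 and 0.34 in 391 fat, 1.1, 0.71 and 0.7 in Box1 fat, 1.08, 1.16 and 0.93 in KO fat, and 1.07, 1.36 and 0.63 in WT fat. The 569 array at 0.08 was the one low in adipocyte markers (-2.09, against -0.23 to 0.39 on the other 14 arrays), and the part of this in the Cyp2e1 value was not tested. The first 391 array and the third 391 array, at 0.3 and 0.34, had adipocyte marker medians of -0.02 and -0.06. Probe 2 was also lowest on the third 569 array, at 0.08, and on the first and the third 391 arrays, at 0.3 and 0.4, and no genotype was called. Cyp2f2 stood at 1.98, 2.45 and 0.22 in 569 fat, 0.33, 0.5 and 0.18 in 391 fat, 1.29, 0.62 and 1.15 in Box1 fat, 1.45, 3.33 and 0.89 in KO fat, and 1, 2.5 and 0.84 in WT fat. All 391 arrays lay below all WT arrays, with a difference of -2.05 ± 0.82 (adjusted p = 1, unadjusted p = 0.028).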

How the data were processed

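The authors' deposited table gives 46643 probes on 30 Illumina bead arrays as a ratio. The divisor was inferred from the values to be the probe's median within its tissue (15 arrays), because every probe's median came out at exactly 1 in either tissue. Ratios carry 2 decimals and run from 0.01 to 168.6, and those of the members from 0.08 to 22.08. No source used here names the background treatment, normalization or software. Total RNA was column-purified from frozen tissue and biotin-labelled, per the labels' protocols. Precision is limited by having 3 arrays per group.

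Probes were named through the platform annotation (1 symbol for 32794 probes, several for 55, none for 13794). Probes of a gene are numbered in the order of their identifiers and none was averaged. Probe sequences were not used here, so members of near-identical families may share a probe.

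Log2 ratios, with no offset and no filter, were modelled by limma 3.58.1 (R 4.3.3, moderated tests). Each tissue had its own model with 5 genotypes, and a joint model of the 30 arrays served the contrasts between tissues. Tests were two-sided with Benjamini-Hochberg adjustment over all probes, and the fit was tested on simulated data. Slides, inferred from the number at the end of the titles, could not be fitted. Members, comparisons and gene lists were chosen with earlier results of these data known. Named genes were all members, up to 4 risen and 4 fallen other Cyp2 genes, up to 3 called genes per list in the contrast of 391, Box1 and KO with WT and 569, and 3 nearest genes per probe called by the F test. Alternatives were quantile normalization, subtraction of array medians, 0.1 added before log2, array weights, robust eBayes, the compared groups alone, probes with 1 symbol alone, and each array left out. The fits without arrays that held markers of other tissues or were low in adipocyte markers were chosen after seeing the data.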

Additional observations from a re-analysis of the deposited data

Results flagged for a closer look

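By an interaction contrast in limma over all 30 arrays, 4 probes had a different change from WT in liver than in fat. For Cyp2a4 probe 2 the liver minus fat difference was 2.64 ± 0.32 in 391 (adjusted p = 7.0e-05), 2.67 ± 0.32 in Box1 (adjusted p = 6.0e-05) and 4.11 ± 0.32 in KO (adjusted p = 5.5e-08). For Cyp2a5 in KO it was 3.21 ± 0.62 on probe 1 (adjusted p = 0.018), 3.44 ± 0.65 on probe 3 (adjusted p = 0.015) and 3.64 ± 0.68 on probe 4 (adjusted p = 0.014). The 391 call of Cyp2a4 was lost on quantile-normalized values (1.99, adjusted p = 0.062). The KO call of Cyp2a5 probe 1 was lost without 1 of 4 arrays (the second KO fat array, the second WT liver array, the third WT liver array, or the second KO liver array, at adjusted p up to 0.065). That of probe 3 was lost without the third KO fat array, the second WT liver array or the second KO liver array (adjusted p up to 0.052).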

How the results depend on the processing

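No called result reversed under any alternative. Of 7871 values of single probes recomputed, 7703 stayed on the same side of the threshold, 100 lost a call and 68 gained one. A change of sign was counted only where the difference was called in the main fit or the alternative. In the contrast of 391, Box1 and KO with WT and 569, 12 of 14 called probes stayed called in every fit run, as did 5 of 8 in 391, 7 of 8 in Box1 and 7 of 9 in KO against WT, and 4 of 11 in 391 against 569. Leaving out 1 array gave 8 called member probes throughout for 391 against WT, 7 to 9 for Box1 and for KO, 7 to 11 for 391 against 569 and 13 to 14 for the contrast of 391, Box1 and KO with WT and 569. With the compared groups alone, 391 against 569 had 5. KO against 391 had 0 under quantile normalization, array weights, robust eBayes or without both 391 arrays with pancreatic markers, and 0 to 2 without 1 array (2 without the third 569 array). KO against Box1 had 1 under quantile normalization, 3 in the groups alone and 0 to 1 without 1 array. In fat, KO against WT had 1 in the groups alone, 0 to 1 without 1 array and 2 without the 3 arrays of unusual marker levels, where Box1 had 1. Liver minus fat had, in 391, 0 under quantile normalization, 5 in the groups alone, 6 without the hepatocyte-high fat arrays, 7 without these and the adipocyte-low array, and 1 to 7 without 1 array. In Box1 it had 3, 8 and 1 to 6 for the last 3 settings, and in KO 7 in the groups alone, 7, 8 and 2 to 7 (2 without the second WT or second KO liver array). The second Box1 fat array set the upper ends. The share of all probes called also changes between fits, and it is given above for some of them only. The counts in this section show how calls depend on the fit and are not set against all probes. No scaling moved the median of all probes by over 0.1 log2 units. Comparisons within an inferred slide were those of 569 with WT and of KO with 391, already given. No paired analysis was possible because the labels give the arrays no replicate numbers. The cause of these changes was not tested. Signal over background is unknown, so no limit from depth can be given.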
